A study of Arabidopsis thaliana with 27 samples.

Results

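Arabidopsis plants sprayed with INA were compared with plants sprayed with SA at the same time after spraying, gene by gene, to ask which genes separated the analog from the hormone early, late or throughout. SA is salicylic acid, a plant hormone. INA is dichloroisonicotinic acid, a chlorinated pyridine carboxylic acid used as a synthetic analog of SA in plant defence work. The members were chosen by their titles: the arrays titled 1 mM INA and the arrays titled 5 mM SA, at 2, 5, 10 and 24 h. They comprised 10 of the series' 27 arrays and 8 of its 24 conditions: 6 INA arrays, with repeat arrays at 10 and 24 h, and 4 SA arrays. All plants were wild type, ecotype Columbia, soil-grown and 28 days old. Sprayed plants were kept at high humidity until harvest, and the labels name leaves in one place and the whole plant without its root in another. Each array set cDNA of sprayed plants against cDNA of untreated plants, which the labels do not describe as sprayed with a blank solution. Whether arrays shared untreated RNA is not stated either.

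SA accumulates in leaves attacked by biotrophic pathogens and switches on defence genes there and in distant leaves, the state called systemic acquired resistance. The receptor-like coactivator NPR1 carries much of this response, and WRKY transcription factors act around it. UDP-glycosyltransferases attach sugars to SA and to many other small molecules, and reductases and transporters deal with reactive or toxic compounds. INA is known for inducing the same kind of resistance.

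A level below is the log2 ratio of treated over untreated plants, with every array's median set to 0 and the spots of a gene and repeat arrays averaged. Above or below untreated plants refers to this centred scale, where 0 is the array's median. Deposited medians were 0.669 to 1.03 on the SA arrays and -0.652 to 1.49 on the INA arrays. The sign of a level can therefore depend on the centring. A difference is the INA level minus the SA level at the same time, so a positive difference means higher under INA. The log base is not stated for the deposited ratios and was taken as 2. Spots with a value numbered 1204 to 2189 on the INA arrays and 1817 to 2103 on the SA arrays. Precision is limited by how few arrays there are. The array names 416 genes, and 193 of them had an INA and an SA level at all 4 times and were tested. Among these, 137 had a value in all 24 conditions. The first INA 10 h array is given as 2 h in its source name and as 10 h in its title. It correlated at r = 0.931 with the second INA 10 h array and at r = 0.779 with the INA 2 h array, across spots, which share probes and are not independent, and it was kept at 10 h. No leaf marker of the list (CAB1, CAB2, RBCS1A, RCA, LHCB2.1, GAPA) was among the named genes analysed here. Levels are ratios of treated over untreated plants, so no marker level here can check the tissue label. The root marker PYK10, a beta-glucosidase of endoplasmic reticulum bodies, had levels of -0.996, -1.93, -1.08 and -0.74 under INA at 2, 5, 10 and 24 h, against -1.24, -1.21, -1.55 and -0.80 under SA. Its mean difference was 0.01 ± 0.51 (SE).

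The doses differed, 1 mM for INA and 5 mM for SA, so the compound and the dose cannot be told apart in any difference below. Each agent had 1 RNA sample per time, and the repeat arrays were of the same RNA. The test therefore took its spread from what agent and time left unexplained over all 6 agents of the series, and its p-values measure that spread rather than the spread between separate batches of plants. Besides INA and SA, the agents were BTH at 0.5 mM, BABA at 10 mM, ethephon at 1 mM and methyl jasmonate at 0.1 mM. In such bulk samples, fewer cells of a type and less RNA per cell cannot be told apart. Differences between INA and SA were most spread at 5 h. Across the 193 genes the SD of the differences was 0.838 and 0.961 at the early times of 2 and 5 h, and 0.696 and 0.645 at the late times of 10 and 24 h. The repeat INA arrays, as single arrays, differed from each other with an SD of 0.536 at 10 h and 0.508 at 24 h. INA levels averaged both repeat arrays in 159 of the 193 genes at 10 h and in 149 at 24 h. At 2 and 5 h INA was 1 array, so the early and late spreads and counts are not of equal precision. Second repeat arrays entered INA minus SA at 10 and 24 h only, so a shift between repeats falls on the late differences alone. INA lay more than 1 log2 unit below SA in 21, 38, 17 and 8 genes at the 4 times in order, and more than 1 unit above SA in 14, 18, 11 and 14 genes. INA lay above SA at all 4 times in 38 genes (19.7%) and below it at all 4 times in 39 (20.2%).

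**Figure D1:**
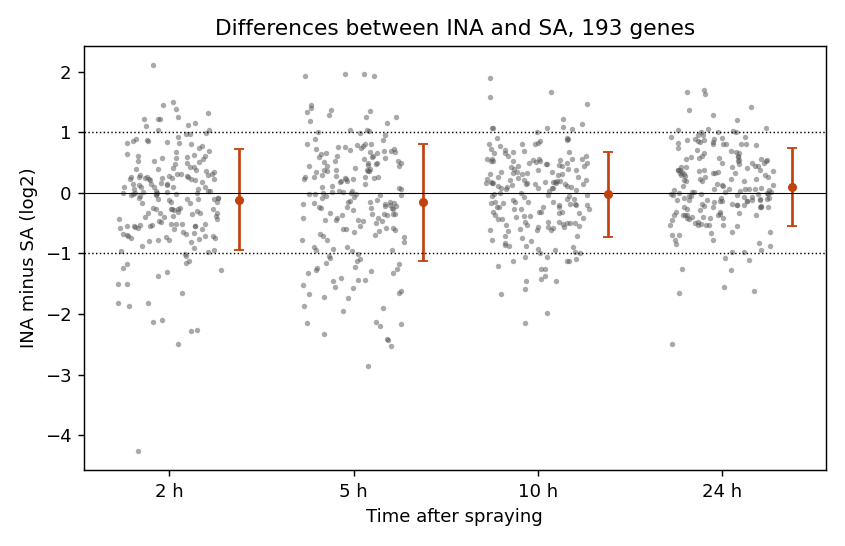
INA minus SA (log2, vertical axis) for each of 193 genes at each time after spraying (horizontal axis). Grey points are genes, the orange point with its bar is the mean ± SD across genes, and dotted lines mark a difference of 1. The cloud is widest at 5 h (SD 0.961), where 38 genes lie below -1, and narrowest at 24 h (SD 0.645).

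In the mean over the 4 times, 19 of 193 genes (9.84%) separated the agents in limma at an adjusted p under 0.05. INA was lower than SA in 11 of them (5.7% of genes tested) and higher in 8 (4.15%). The 11 lower genes had SA means between 0.239 and 3.19 and INA means between -0.989 and 1.81. Choice for INA below SA itself favours high SA means, so these levels only describe the genes. They held 2 of 4 tested genes of the chemical detoxification list, whose other members UGT73B3 and AER did not pass (limma adjusted p = 0.0942 and 0.0771). They also held 2 of 6 tested UDP-glycosyltransferases known by annotated name and 1 of 2 tested genes of the calcium sensor list. The lists were chosen with earlier results of these data known, so these counts only describe. The 8 higher genes had INA means between -0.964 and 1.36 and SA means between -2.24 and 0.578. The INA and SA means lay on opposite sides of 0 in 4 of 8, which choice by the difference likewise favours. They included the transcription factors WRKY53 and DEWAX, pyruvate decarboxylase PDC2 and the glucosyltransferase UGT72E1. Loci printed without a symbol have no gene name in the RefSeq gene table, and no role is given for them beyond the list that holds them. On arrays centred on the tubulin gene TUA5, or not centred at all, no gene passed as higher and 7 or 6 as lower, while the median gene's difference moved to -0.20 or -0.13. Without the 5 h arrays no gene passed, with limma adjusted p from 0.0737 to 0.37 in the 19 genes, and without the 10 h arrays 6 passed. None of the 19 mean differences changed sign without the 5 h arrays. That of DEWAX went from 1.09 to 1.11, and that of AT2G36780 from -1.33 to -0.82.

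**Figure D2:**
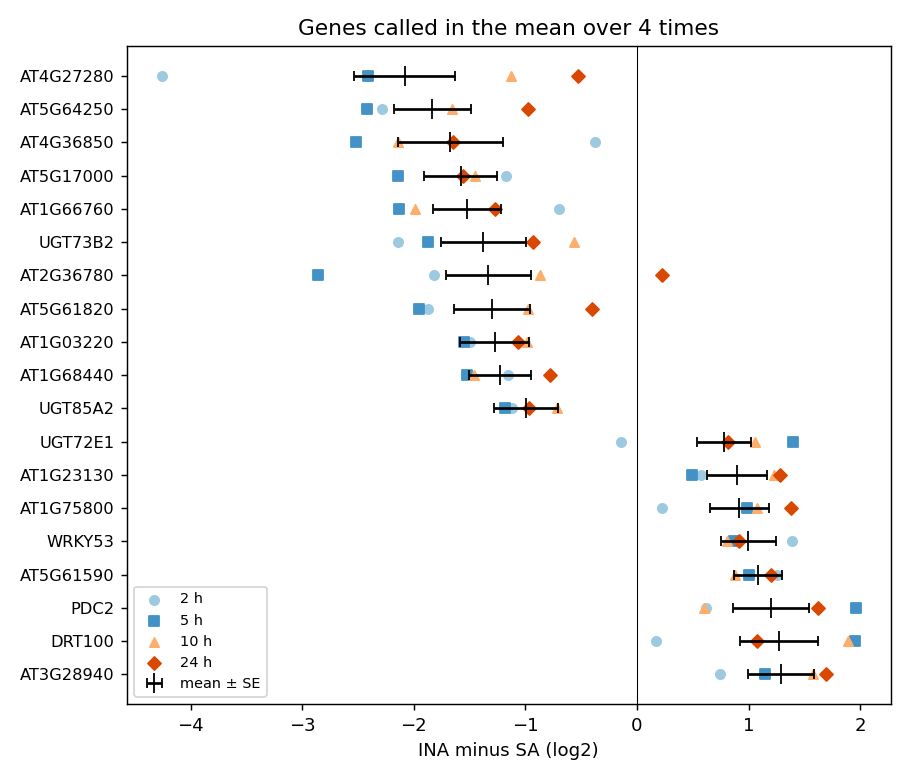
INA minus SA (log2, horizontal axis) of the 19 genes that passed in the mean over 4 times, 1 gene per row. Coloured symbols are the differences at 2, 5, 10 and 24 h and black bars are the fitted mean ± SE. AT4G27280 spans -4.26 at 2 h to -0.53 at 24 h, while the 4 differences of DEWAX (AT5G61590) lie between 0.88 and 1.26.

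AT5G64250, a member of the detoxification list, was 3.57-fold lower under INA than under SA. Its levels were 1.36, 0.33, 0.29 and 0.20 under INA at 2, 5, 10 and 24 h, against 3.64, 2.75, 1.95 and 1.18 under SA. The gene was above untreated plants in every condition of both agents, and each INA level lay below its SA partner. The mean difference was -1.84 ± 0.35 (SE, 4 times, limma adjusted p = 0.00331).

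AT1G66760, also on that list, had levels of 1.58, -0.21, -0.81 and -0.75 under INA, against 2.28, 1.92, 1.18 and 0.52 under SA. INA plants thus showed a level above 0 at 2 h only, and SA plants at all 4 times. The mean difference was -1.52 ± 0.30 (limma adjusted p = 0.00331). At 24 h this gene, AT5G64250, AT4G27280, AT1G03220, AT5G61820, AT2G36780, UGT73B2, UGT85A2 and WRKY53 were measured on 1 of the 2 INA arrays.

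AT5G17000 was the 1 gene (0.518% of those tested) in which INA lay more than 1 unit below SA at each of the 4 times. Its levels were 2.07, 0.33, -0.20 and -0.58 under INA, against 3.24, 2.47, 1.24 and 0.98 under SA. It passed in the mean, -1.58 ± 0.33 with a limma adjusted p of 0.00492, and was the 1 gene to pass both early and late. With the replicate block AT1G66760 also passed both. In the RefSeq gene order AT5G17000 is separated by 2 protein-coding genes from AER, which encodes an alkenal reductase that acts on reactive carbonyls. AER had levels of 2.08, 0.87, -0.02 and -0.10 under INA, against 2.95, 2.301, 1.10 and 0.26 under SA. Its mean difference, -0.95 ± 0.35, did not pass (limma adjusted p = 0.0771, and 0.0408 with the replicate number as a block). Whether the cDNA spots of neighbouring related genes bind each other's transcripts was not tested.

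The UDP-glycosyltransferases attach sugars to hormones, phenolics and foreign chemicals. Of 9 on the array by annotated name, 6 were tested, of which 2 passed as lower under INA in the mean and 1 as higher, against 5.7% and 4.15% of all genes tested. Any member without such a name is left out of these counts. The median difference of the 6 was -1.10 in the mean, -1.47 early (2 and 5 h) and -0.53 late (10 and 24 h), against 0.01 in the mean over all 193 genes. UGT73B2 had levels of 2.83, 1.35, 2.099 and 0.98 under INA, against 4.97, 3.22, 2.66 and 1.91 under SA. It was above untreated plants throughout under both agents, most so at 2 h, and its mean difference was -1.38 ± 0.38 (limma adjusted p = 0.0289, and 0.0751 with the replicate block). The INA arrays of UGT73B2 at 10 h read 2.67 and 1.52, and at 24 h only the second had a value. UGT73B3 and UGT73B1 lie next to UGT73B2 in the RefSeq gene order, with 0 protein-coding genes between neighbours. Their mean differences of -1.21 ± 0.46 and -0.55 ± 0.34 did not pass (limma adjusted p = 0.0942 and 0.281).

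UGT85A2 had levels of 1.32, 1.46, 0.67 and -0.26 under INA, against 2.44, 2.64, 1.38 and 0.71 under SA. Its differences were even across time, between -1.18 and -0.72. The mean difference of -0.995 ± 0.29 passed (limma adjusted p = 0.0283, and 0.1 with the replicate block). UGT72E1, which glucosylates lignin precursor aldehydes, went the other way: 0.84, 1.81, 1.18 and 1.61 under INA, against 0.99, 0.41, 0.12 and 0.79 under SA. INA was higher from 5 h on and slightly lower at 2 h, with a mean difference of 0.78 ± 0.24 (limma adjusted p = 0.038). At 24 h the INA arrays of UGT72E1 read 2.15 and 1.07, and without the first of them it did not pass. It passed in the mean in 12 of 22 alternatives.

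**Figure D3:**
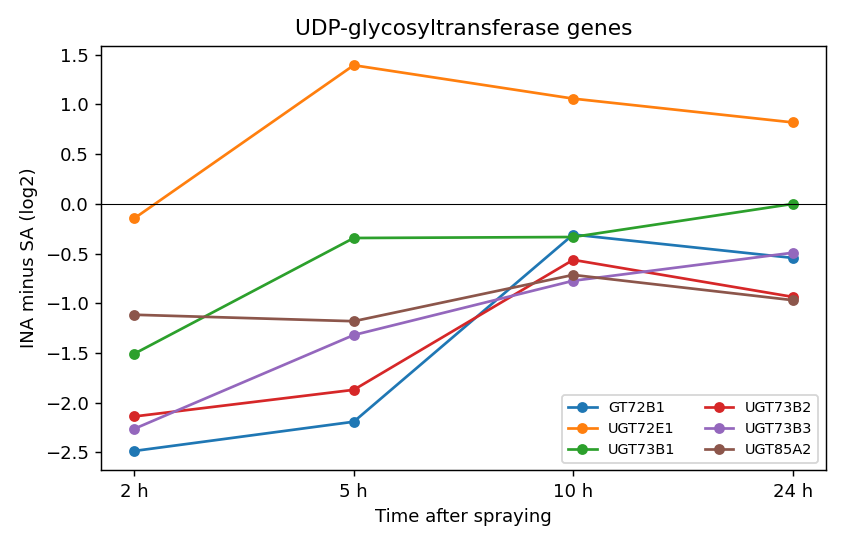
INA minus SA (log2, vertical axis) by time after spraying (horizontal axis, evenly spaced) for the 6 tested UDP-glycosyltransferase genes, 1 line each. At 2 h all 6 lines lie below 0, and from 5 h UGT72E1 lies above it, at 1.39, 1.06 and 0.82.

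AT4G27280, on the list of calcium sensor proteins, had the largest mean difference among the 19 genes, -2.08 ± 0.45 (limma adjusted p = 0.00492), or 4.23-fold lower under INA. Its levels were 0.38, 0.56, 0.32 and 0.03 under INA, against 4.64, 2.97, 1.45 and 0.56 under SA. INA plants stayed near untreated plants at every time, and the SA level declined with each later time. The mean difference was -1.36 without the 2 h arrays. A second list member, AT2G41410, had a mean difference of 0.55 ± 0.28 and did not pass (limma adjusted p = 0.198).

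The other lower genes were on none of the lists and had no symbol in the RefSeq gene table, which does not show that they belong to no family. AT4G36850 had levels of 1.47, -0.68, -0.23 and -0.97 under INA, against 1.85, 1.84, 1.91 and 0.67 under SA. The agents were close at 2 h and apart from 5 h on, with a mean difference of -1.67 ± 0.47 (limma adjusted p = 0.0265). AT1G68440 was the gene of the 11 with the lowest SA mean: -0.49, -1.29, -1.51 and -0.66 under INA, against 0.67, 0.23, -0.05 and 0.11 under SA. On the centred scale INA plants were below untreated plants and SA plants were near them. The mean difference was -1.23 ± 0.28 (limma adjusted p = 0.00784). Under BTH, another synthetic activator, sprayed at 0.5 mM, the same gene averaged 1.73 ± 0.23, with no value at 5 h. It also averaged 1.41 ± 0.20 under ethephon and 1.66 ± 0.29 under methyl jasmonate, against -0.51 ± 0.23 under BABA. AT1G03220, AT5G61820 and AT2G36780 had mean differences of -1.28 ± 0.31, -1.30 ± 0.34 and -1.33 ± 0.38. The last of these was -0.82 without the 5 h arrays, and its difference was positive, 0.23, at 24 h.

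**Figure D4:**
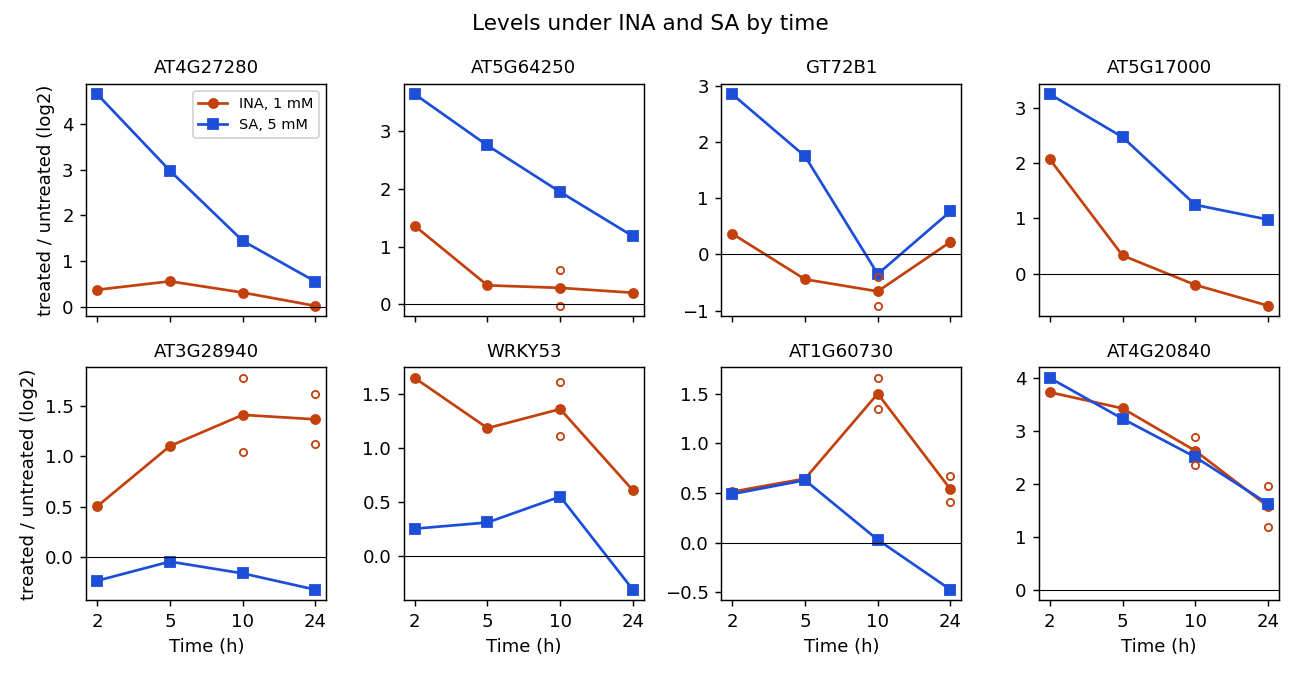
Levels (log2 treated over untreated, vertical axes with their own ranges) at 2, 5, 10 and 24 h (horizontal axes, evenly spaced) for 8 genes. Orange circles are INA at 1 mM, open circles its repeat arrays where both measured the gene, and blue squares SA at 5 mM. AT4G27280 shows INA at 0.38 and SA at 4.64 at 2 h, AT3G28940 and WRKY53 show INA above SA at all 4 times, and AT4G20840 shows the agents together.

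Genes higher under INA were led in size by AT3G28940. Its levels were 0.50, 1.10, 1.41 and 1.37 under INA, against -0.24, -0.05, -0.16 and -0.33 under SA. INA levels were above the array median at every time and SA levels slightly below it at every time. The deposited medians of the SA arrays, 0.669 to 1.03, exceed these SA levels in size. Whether SA plants lay above or below untreated plants thus depends on the centring. The mean difference was 1.29 ± 0.30, a 2.45-fold higher level under INA (limma adjusted p = 0.00784).

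WRKY53 encodes a transcription factor of leaf senescence and defence, and it was 1 of 2 genes of the 28-gene SA signalling list that are named in the table used here. It had levels of 1.65, 1.18, 1.36 and 0.61 under INA, against 0.26, 0.31, 0.55 and -0.31 under SA. Every INA level exceeded every SA level. In the mean it was 0.997 ± 0.25 higher under INA (limma adjusted p = 0.0158). ECS1, the other list member, had a mean difference of 0.46 ± 0.33 that did not pass (limma adjusted p = 0.327). So few members say little of the list.

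AT5G61590, annotated as DEWAX, a transcription factor that lowers wax biosynthesis, had the smallest SE of the 19 genes. It had levels of 1.29, 0.97, 1.03 and -0.48 under INA, against 0.04, -0.03, 0.15 and -1.68 under SA. Both agents showed their lowest level at 24 h, and the difference stayed between 0.88 and 1.26. The average over times was 1.09 ± 0.21 (limma adjusted p = 0.00331).

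PDC2, a pyruvate decarboxylase of ethanol fermentation, had levels of -0.17, 1.27, -0.16 and 0.08 under INA, against -0.79, -0.69, -0.76 and -1.54 under SA. On the centred scale INA plants stood above untreated plants mainly at 5 h, and SA plants were below them throughout. Averaged over the times the difference was 1.20 ± 0.34 (limma adjusted p = 0.0283). DRT100, named for DNA-damage repair and toleration, was below untreated plants under both agents: -1.69, -0.35, -1.29 and -0.54 under INA, against -1.85, -2.30, -3.18 and -1.61 under SA. Its mean difference was 1.27 ± 0.35 (limma adjusted p = 0.0236), with the agents close at 2 h. AT1G23130 and AT1G75800 had mean differences of 0.90 ± 0.27 and 0.92 ± 0.27 (limma adjusted p = 0.0323 and 0.0283), the second 0.72 ± 0.28 with the replicate block (adjusted p = 0.103). FUG1, the chloroplast translation initiation factor, had a mean difference of 0.97 ± 0.35 and did not pass (limma adjusted p = 0.0658), with levels of -2.09, -1.48, -1.82 and -1.32 under INA, against -3.12, -2.93, -2.64 and -1.91 under SA.

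At 2 and 5 h together, 16 genes passed (8.29% of those tested): INA was lower in 14 (7.25%) and higher in 2 (1.04%). At 10 and 24 h together, 7 passed (3.63%), 3 lower under INA (1.55%) and 4 higher (2.07%). The test of the change itself, late difference minus early difference, passed in 0 genes in limma after adjustment, against 15 at an unadjusted p under 0.05. It passed in 3 (AT4G27280, GT72B1 and AT1G17990) when fitted on the INA and SA conditions alone. By test, then, no gene was classed as early only or late only. Its 95% interval reached, in the median gene, 1.12 log2 units to either side of the estimate, before adjustment over genes, and changes of up to 2.51 units did not pass, so changes below that size may not have been detectable. Of the 19 genes called in the mean, 17 (8.81% of genes tested) had 1 sign at all 4 times, and were classed as throughout. Choice by the mean itself favours 1 sign. The class also required that the test of the change not pass, which held for every gene. It therefore does not show an even difference: AT4G27280, in this class, ran from -4.26 at 2 h to -0.53 at 24 h. The early count depended on several choices: 1 gene passed without the 5 h arrays, 1 without centring, 3 without the second INA 24 h array, 6 with quantile normalization and 6 with arrays scaled to equal spread, while centring on TUA5 gave 16 lower and 0 higher. The late count was 0 with centring on TUA5, with equal spread, for genes measured in all 24 conditions and without the 10 h arrays, 1 with quantile normalization and 2, both lower, without centring.

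The 14 genes lower early included the glucosyltransferases GT72B1, UGT73B2 and UGT85A2. AT4G27280 led with an early difference of -3.33 ± 0.43 (limma adjusted p = 3.63e-05) against -0.83 ± 0.43 late (adjusted p = 0.369). Its change between phases was 2.51 ± 0.61, with a 95% interval of 1.23 to 3.79 and an adjusted p of 0.0997, the smallest of that test.

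GT72B1, a glucosyltransferase known to conjugate chlorinated phenols and anilines, passed early. In the mean it did not pass (-1.38 ± 0.48, limma adjusted p = 0.063), but did with the replicate block (-1.43 ± 0.45, adjusted p = 0.0408). It had levels of 0.37, -0.44, -0.66 and 0.22 under INA, against 2.85, 1.75, -0.35 and 0.77 under SA. The separation lay at 2 and 5 h, where INA plants were near or below untreated plants and SA plants were above them. The early difference was -2.34 ± 0.42 (limma adjusted p = 0.00114), the late one -0.43 ± 0.42 (adjusted p = 0.705), and the change between them 1.91 ± 0.60 (adjusted p = 0.173). UGT73B2 had an early difference of -2.01 ± 0.43 (adjusted p = 0.00914) and UGT85A2 one of -1.15 ± 0.34 (adjusted p = 0.0404).

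AT5G64250 and AER, both on the detoxification list, also passed early, at -2.35 ± 0.43 and -1.15 ± 0.35 (limma adjusted p = 0.00114 and 0.0427). Their late differences of -1.32 ± 0.43 and -0.74 ± 0.35 did not pass. AT2G36780 had an early difference of -2.34 ± 0.41, AT5G61820 one of -1.91 ± 0.35, and AT1G33110 one of -1.72 ± 0.43. AT3G29240 had levels of 1.33, -0.13, 1.68 and 1.90 under INA, against 2.01, 2.20, 2.51 and 1.61 under SA. Its early difference of -1.51 ± 0.44 (limma adjusted p = 0.0404) came mainly from 5 h, where INA plants were near untreated plants. The 2 genes higher early were PDC2, 1.29 ± 0.38, and DEWAX, 1.13 ± 0.34.

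**Figure D5:**
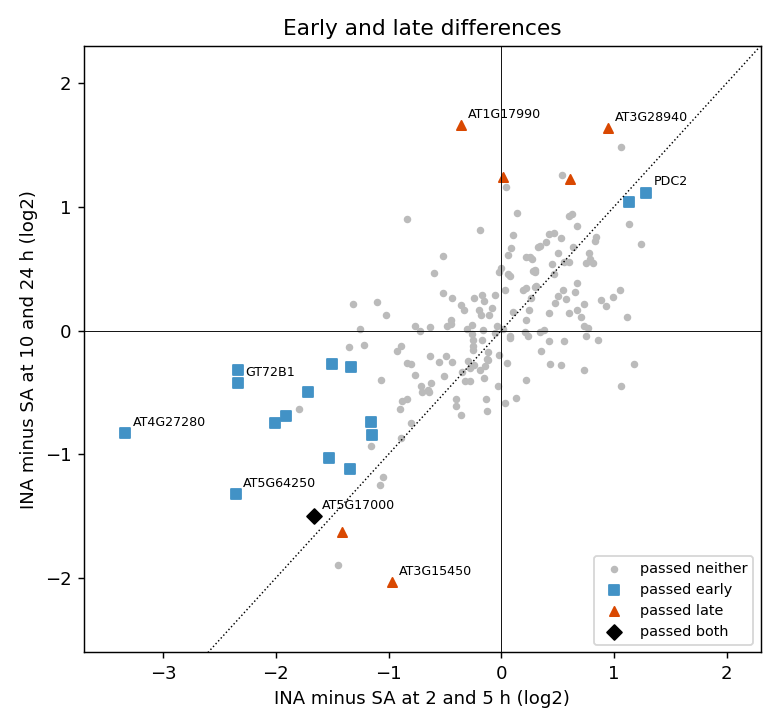
INA minus SA at 10 and 24 h (log2, vertical axis) against INA minus SA at 2 and 5 h (log2, horizontal axis) for 193 genes. Blue squares passed early, orange triangles passed late, the black diamond passed both, grey points passed neither, and the dotted line marks equal differences. AT4G27280 lies at -3.33 early and -0.83 late, AT1G17990 at -0.36 early and 1.66 late, and AT5G17000 near the line at -1.66 and -1.502.

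Among the genes called late, AT1G17990 had no matching early difference. It had levels of -0.06, -0.49, 0.46 and 0.37 under INA, against 0.47, -0.30, -1.21 and -1.29 under SA. INA was slightly below SA at 2 and 5 h and above it at 10 and 24 h. The late difference was 1.66 ± 0.37 (limma adjusted p = 0.0328), the early one -0.36 ± 0.37, and the change between them 2.02 ± 0.52 (adjusted p = 0.0997).

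AT1G60730 was the 1 gene (0.518%) that separated late by size, with both late differences over 1 and both early ones within 0.5 of 0. It had levels of 0.51, 0.64, 1.499 and 0.54 under INA, against 0.49, 0.63, 0.03 and -0.47 under SA. The agents coincided at 2 and 5 h. The late difference was 1.24 ± 0.32 (limma adjusted p = 0.0417). AT3G28940 and AT1G75800 also passed late, at 1.64 ± 0.38 and 1.23 ± 0.34 (adjusted p = 0.0328 and 0.048), the second 0.80 ± 0.32 with the replicate block (adjusted p = 0.186). The INA arrays of AT1G75800 read 0.08 and 1.30 at 10 h, and -1.16 and -0.05 at 24 h. It passed late in 6 of 22 alternatives.

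The 3 genes lower late were AT3G15450, AT1G66760 and AT5G17000. AT3G15450, on the sugar starvation and dark response list, had levels of 3.13, 1.83, 2.07 and -1.01 under INA, against 3.83, 3.07, 3.65 and 1.48 under SA. Its level was above 0 under both agents through 10 h, and at 24 h INA plants were below untreated plants while SA plants were above them. The late difference was -2.04 ± 0.57 (limma adjusted p = 0.048). AT1G66760 had a late difference of -1.63 ± 0.44 and AT5G17000 one of -1.502 ± 0.38.

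By size alone, with no test, 2 genes (1.04%) separated early, with INA lower: AT3G21670 and AT1G15430. AT3G21670, annotated as the nitrate transporter family member NPF6.4, had levels of -3.21, -3.43, -3.84 and -1.24 under INA, against -1.56, -2.38, -3.65 and -1.16 under SA. INA plants were lower at 2 and 5 h, and the averaged levels were close at 10 and 24 h. At 10 h, however, the INA arrays read -4.63 and -3.05, on either side of the SA level. The place of AT3G21670 in this size class thus depends on averaging them. AT1G15430 had levels of 1.08, 0.09, 1.05 and 0.24 under INA, against 2.46, 1.22, 0.74 and 0.53 under SA. Differences over 1 at both 2 and 5 h, whatever came later, were seen in 14 genes (7.25%) with INA lower and 2 (1.04%) with INA higher, and at both 10 and 24 h in 5 (2.59%) and 6 (3.11%).

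In the other listed groups few genes passed. Of the sugar starvation list 4 were tested and none passed in the mean: MCCA, a subunit of methylcrotonyl-CoA carboxylase in leucine breakdown, had a difference of -1.12 ± 0.41 (limma adjusted p = 0.0733), while its partner subunit MCCB had -0.27 ± 0.23 and IVD, an earlier enzyme of that pathway, -0.24 ± 0.25. None of 3 tested dehydration and cold genes passed in the mean, early or late. COR15A had 1.62, -0.95, -2.41 and -3.36 under INA, against 0.75, -0.33, -1.55 and -3.13 under SA. COR47, a dehydrin, had 1.49, -0.24, -1.21 and -1.51 under INA, against -0.62, -0.49, -1.20 and -0.98 under SA. KIN2 had 2.50, 0.32, -1.22 and -1.72 under INA, against 1.00, 0.35, -0.71 and -1.61 under SA. In all 3 the INA level stood above the SA level at 2 h. From 5 h on the differences lay between -0.86 and 0.25, with COR15A lower under INA at 5 and 10 h. The early difference of COR47 was 1.18 ± 0.40 (limma adjusted p = 0.0776).

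Of the jasmonate and ethylene list 5 were tested and none passed in the mean, early or late. THI2.1, a thionin, had differences of -0.39, 0.48, 0.91 and 1.41 at 2, 5, 10 and 24 h, with a late difference of 1.16 ± 0.34 (limma adjusted p = 0.0702), and EIN3, a transcription factor of ethylene signalling, had a mean difference of 0.09 ± 0.25. PDF1.2, a plant defensin, had INA levels of 1.54, 2.44 and 2.08 at 5, 10 and 24 h and no SA value, so it was not tested. STZ, a zinc finger protein of stress responses, had 1.91 and 0.82 under INA at 2 and 5 h, against 4.002 and 2.70 under SA, and was not tested for its missing later values.

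Some genes stood far from untreated plants under both agents. Dyes were not swapped, and whether a dye effect common to all arrays adds to such levels was not tested. Of the 193 genes, 18 had means beyond 1.5 in the same direction under both, among them UGT73B2, which passed as lower under INA. The 8 of the 18 with the smallest mean differences were AT4G20840, AT1G64500, AT4G20830, YLS5, AT3G28220, AT3G20820, AT2G39210 and AT2G26690. AT4G20840 had levels of 3.73, 3.43, 2.62 and 1.57 under INA, against 4.0, 3.23, 2.51 and 1.62 under SA. Both agents declined together from 2 h to 24 h, and the 95% interval of the mean difference ran from -0.78 to 0.77. AT4G20830, with 1 protein-coding gene between them in the RefSeq order, had 4.01, 3.23, 2.47 and 1.26 under INA, against 4.10, 3.25, 2.28 and 1.495 under SA. These genes were chosen for small differences, and the intervals bound the difference rather than show that the agents act alike. AT2G26690, annotated as NPF6.2, was below untreated plants under both: -2.65, -2.32, -2.96 and -1.11 under INA, against -1.94, -2.15, -2.47 and -1.10 under SA. AT2G39210 had a mean difference of 0.31 ± 0.35 that combined 1.06 early with -0.45 late.

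Genes with 3 matched times were left out of the 193. When they were let in, 3 further genes passed as lower under INA, each with no INA value at 24 h. AT1G76600 had levels of 1.87, 0.26 and 1.09 under INA at 2, 5 and 10 h, against 5.39, 3.88 and 2.33 under SA, and a difference of -2.71 ± 0.47 (limma adjusted p = 0.00338). ALDH7B4, an aldehyde dehydrogenase on the detoxification list, had 0.66, -0.02 and 0.74 under INA, against 1.69, 2.13 and 2.22 under SA. Its INA level was below its SA level at each of the 3 times, with a difference of -1.54 ± 0.38 (adjusted p = 0.0137). CML38, a calmodulin-like protein, had 1.20, -0.01 and 0.26 under INA, against 2.17, 1.59 and 1.12 under SA (-1.14 ± 0.29, adjusted p = 0.025).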

How the data were processed

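Per the labels' protocols, the authors made the deposited log ratios, taken here as log2, from 2-colour cDNA arrays with treated mRNA labelled with Cy5 and untreated mRNA with Cy3. The sources used here give neither their log base nor their normalization. Dyes were not swapped. A dye effect common to all arrays cancels in INA minus SA but not in the levels. Each array was centred on its median. A gene's spots, then repeat arrays, were averaged. Of 2560 spots, 884 carried 1 of 416 gene names, 415 of which matched RefSeq (TAIR10.1).

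limma 3.58.1 (R 4.3.3) fitted agent plus time, and a mean per agent and phase plus time, over 24 conditions; p-values were two-sided and Benjamini-Hochberg adjusted over 193 genes. The script was tested on simulated data. Named genes were those passing, at most 10 per direction, size classes, list members and genes alike under both agents. The members and lists were chosen with earlier results of these data known. Deviations of same-numbered repeat arrays correlated at 0.555, 0.521 and 0.442, so the numbers were taken as pairing and a replicate block was fitted as an alternative.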

Additional observations from a re-analysis of the deposited data

How the results depend on the processing

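None of the 19 mean, 16 early and 7 late calls changed sign in any of the 22 alternatives that tested the gene, at least 17 for each. Fitting INA and SA alone, dropping the time terms or leaving out a BTH array cannot change these differences. The other alternatives use the same INA and SA arrays, so an unchanged sign was favoured for large differences. The counts of calls, 19 in the mean, 16 early, 7 late and 0 for the change between phases, ranged over 0 to 32, 1 to 30, 0 to 12 and 0 to 3. Without centring they were 6, 1, 2 and 0, and with centring on TUA5 7 in the mean and 0 late. Quantile normalization gave 6 early and 1 late, and scaling to equal spread 9, 6 and 0. Genes measured in all 24 conditions gave 11, 5 and 0 calls, and those in at least 20 conditions 12, 5 and 2. Fitting INA and SA alone gave 32, 30, 12 and 3, and no terms for time 1, 3 and 0. Counting the first INA 10 h array as 2 h gave 30 in the mean. Without 2 h, early calls were 7 and late 3. Without 5 h the counts were 0, 1, 3 and 1, the last AT4G27280 (3.43 ± 0.59, adjusted p = 0.0112). Without 10 h they were 6, 8 and 0, and without 24 h 9 early and 1 late. Leaving out 1 repeat array gave 9 to 23, 3 to 15, 4 to 7 and 0 to 0; the lowest mean and early counts came without the second INA 24 h array, when 153 genes could be tested. With the replicate number as a block, calls were 22, 17, 8 and 0, with 16 of the 19 in the mean shared. UGT85A2, UGT73B2 and AT1G75800 were lost and GT72B1, AER, AT1G66180, AT1G78830, AT1G79245 and AT3G55430 gained in the mean. AT1G66760 was gained early, and AT1G75800 lost and UGT72E1 and AT4G11190 gained late. AT5G64250 passed in the mean in 20 of 21 alternatives that tested it, DEWAX in 18 of 22 and UGT73B2 in 9 of 19. Without centring the median difference was -0.134 in the mean, 0.128 early and -0.389 late; on TUA5 it was -0.204, -0.48 and 0.065. The cause of these changes was not tested beyond the fewer genes or times some alternatives hold.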

Other observations

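Of the array's spots, 1676 carry no gene name, and 909 of them had INA and SA values at all 4 times. INA lay more than 1 log2 unit below SA at both 2 and 5 h in 46 of these spots (5.06%) and above it in 31 (3.41%). At both 10 and 24 h it lay below in 20 (2.2%) and above in 42 (4.62%). At all 4 times INA lay above SA by more than 1 unit in 12 spots (1.32%) and below in 3 (0.33%), where the named genes held 1 gene below. These are values of single spots with no test, and several spots may belong to 1 gene.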
